A study of Mus musculus with 24 samples.

Results

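The Mas-related G protein-coupled receptors (Mrgprs) were followed in 7 genes, Mrgpra1, Mrgpra3, Mrgprb4, Mrgprb5, Mrgprd, Mrgpre and Mrgprx1, chosen by name from the 47643 gene rows of the count files. Each was found by its Ensembl identifier, and 6 of the 7 had enough reads to be tested beside 17178 genes in all. The cells were GFP-positive neurons sorted from L4 dorsal root ganglia (DRG) taken 3 d after a crush of the sciatic nerve on the opposite side. All mice carried Nav1.8-Cre and the Rosa26-ZsGreen reporter. Control mice were Tsc2 flox/+ and Nav-Tsc2 mice were Tsc2 flox/null. Both groups were 8 to 9 weeks old, of mixed C57BL/6 and AJ strain, and both had the injury on the other side. In each genotype mice 1 and 2 were male and mice 3 and 4 female, and every mouse gave 3 technical libraries (A, B and C) of 100 cells. Nav1.8-Cre acts in most C-nociceptors and in some neurons with myelinated axons, the controls lose 1 Tsc2 copy in these cells, and the null allele of Nav-Tsc2 mice is carried by every cell of the animal. The comparison asked whether loss of Tsc2 from these neurons changed their transcripts, here those of the Mrgpr family.

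Mrgprs are receptors of the sensory neurons of the skin, and the presence of 1 member or another sets nonpeptidergic C-neurons apart into classes. Mrgprd, a receptor for beta-alanine, marks the polymodal nonpeptidergic nociceptors of the epidermis. Mrgpra3, a chloroquine receptor, marks itch neurons that also carry Mrgprx1, the receptor also called MrgprC11, and Mrgprb4 marks C-fibers that respond to stroking. Mrgpra1 is a close relative of Mrgpra3, Mrgprb5 a close relative of Mrgprb4, and Mrgpre an orphan receptor. Mrgprs signal through Gq and phospholipase C beta, and the transcription factor Runx1 is needed for their expression during development.

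All 7 genes lie on chromosome 7 of the mouse genome (build GRCm38), with positions and exons from GENCODE release M21. On the minus strand, 5 members lie together: Mrgpra1 from 47334875 to 47354240, Mrgpra3 from 47588950 to 47601372, Mrgprx1 from 48020971 to 48027597, Mrgprb5 from 48167983 to 48169019 and Mrgprb4 from 48198070 to 48199288. Mrgpre, from 143778363 to 143784500 on the minus strand, and Mrgprd, from 145314835 to 145324086 on the plus strand, lie near the other end of the chromosome. Mrgprb4 and Mrgprb5 have a single exon, and the others have 2. No exon base of these genes overlaps another gene except for 66 of the 3761 exon bases of Mrgpre.

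The coding sequences, taken as the longest reading frame of each gene's transcripts, fell into pairs. Mrgpra1 and Mrgpra3 were identical at 84.2% of bases and Mrgprb4 and Mrgprb5 at 84.6%. The other pairs of members shared between 55.6% and 65.7%, and Mrgprd and Mrgpre shared 61.6%. Reads were 50 bases long, and reads placed equally well at several loci were not counted. Of the 50-base windows in their transcripts, 92.9% in Mrgpra3, 94.2% in Mrgprx1, 96.9% in Mrgpra1, 98.5% in Mrgprb4, 98.7% in Mrgpre, 99.2% in Mrgprb5 and 100% in Mrgprd occurred in the transcripts of no other gene. The members could therefore be told apart from each other over most of their length.

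Promoter sequences of GRCm38.p6 from RefSeq were matched for 6 of the 7 members. Mrgpra3, which was called between genotypes, had no entry and was not searched. The 250 bases before the RefSeq start are shown for Mrgpra1 and Mrgpre, which were also called, and for Mrgprd, the most abundant member. Each runs 5′ to 3′ on the strand of its gene. The motif bound by Runx proteins (TGTGGT or TGCGGT, on either strand) is in capitals, and ACCACA is TGTGGT read on the other strand. The motif was found once, in the Mrgpra1 window, and not in the windows of the other 5 members, while 18.6% of 32851 mouse promoter windows of this length hold it. The windows are at chr7:47354241-47354490 (minus strand) for Mrgpra1, chr7:143784501-143784750 (minus strand) for Mrgpre and chr7:145314585-145314834 (plus strand) for Mrgprd.
Mrgpra1: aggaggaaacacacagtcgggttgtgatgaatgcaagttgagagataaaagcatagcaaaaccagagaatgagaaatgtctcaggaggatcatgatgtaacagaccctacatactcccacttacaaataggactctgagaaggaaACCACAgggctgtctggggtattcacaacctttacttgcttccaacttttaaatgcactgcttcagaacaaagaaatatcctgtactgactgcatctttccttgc
Mrgpre: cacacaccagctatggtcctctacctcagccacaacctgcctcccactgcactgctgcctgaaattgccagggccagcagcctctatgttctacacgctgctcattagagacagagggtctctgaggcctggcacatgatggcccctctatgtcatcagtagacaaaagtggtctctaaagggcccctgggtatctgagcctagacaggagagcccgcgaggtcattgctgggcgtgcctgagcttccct
Mrgprd: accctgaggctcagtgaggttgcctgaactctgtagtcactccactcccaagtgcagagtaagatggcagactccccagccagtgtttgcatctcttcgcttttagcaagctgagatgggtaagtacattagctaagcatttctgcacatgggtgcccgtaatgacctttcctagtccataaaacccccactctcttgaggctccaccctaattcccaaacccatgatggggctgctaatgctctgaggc

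Levels are given as CPM, read counts brought to a common scale between libraries by TMM normalization, either for single libraries or for the 3 libraries of a mouse summed. Genotypes were compared over 4 mice against 4 with edgeR's quasi-likelihood test, with p-values adjusted over all 17178 genes by the Benjamini-Hochberg method. A gene was called at an adjusted p under 0.05 together with a log2 fold change beyond 0.5 in either direction. Of the 7 members, 2 were called lower in Nav-Tsc2 mice (Mrgpra3 and Mrgpra1), against 8.00% of all genes tested. Another member, Mrgpre, was called higher, against 9.12% of all genes. Mrgprd, Mrgprb5 and Mrgprx1 were tested and not called, and Mrgprb4, with 1 read in all libraries together, could not be tested. The median log2 fold change of the 6 members tested was 0.01 and that of all genes tested was 0.01. In sums of 100 sorted cells, fewer cells of a type cannot be told apart from less RNA per cell.

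**Figure D1:**
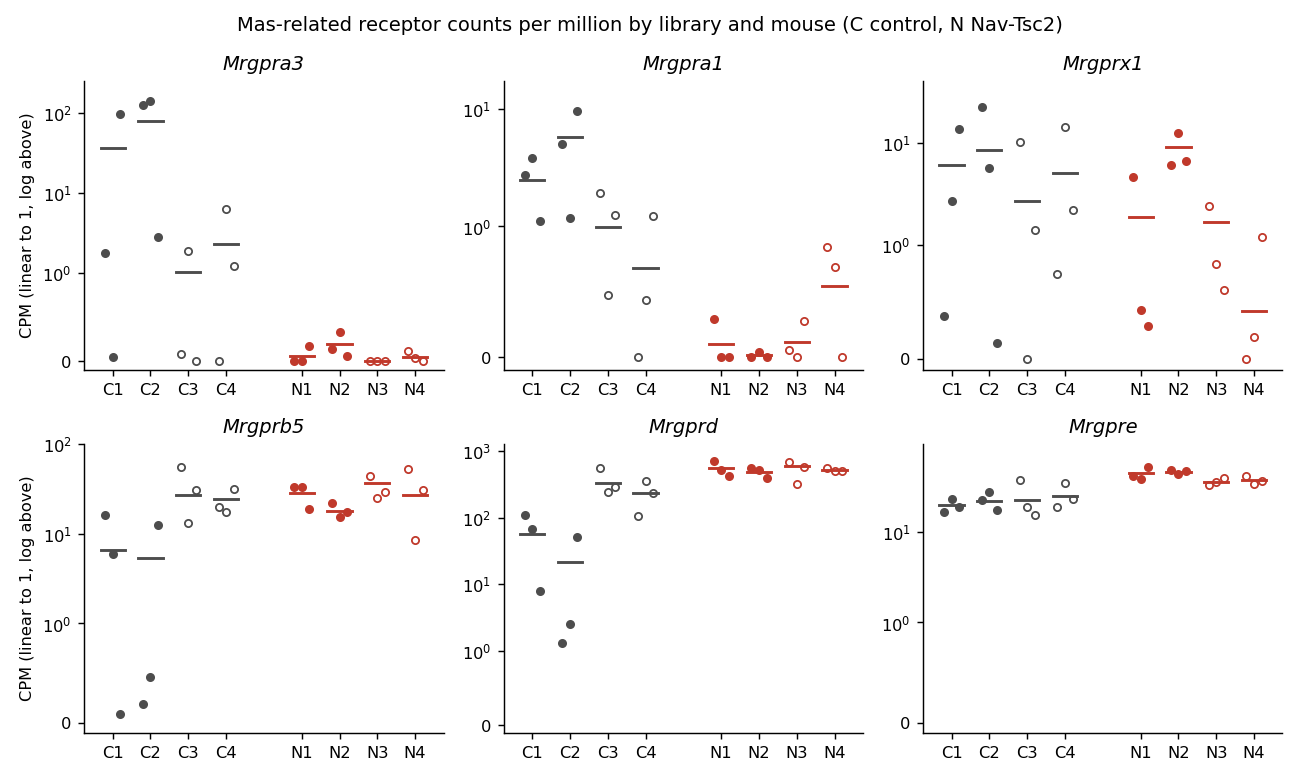
CPM of the 6 members tested, on an axis that is linear up to 1 and logarithmic above; points are libraries, horizontal bars the summed value of a mouse, filled points male and open points female mice, C control and N Nav-Tsc2. Mrgpra3 reached 97.9 to 140 CPM in 3 control libraries and at most 0.326 CPM in any Nav-Tsc2 library, while Mrgprd lay between 319 and 708 CPM in all 12 Nav-Tsc2 libraries.

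The counts on genes ranged from 12210899 to 28641787 per control library and per Nav-Tsc2 library from 8339220 to 34228180. Tsc2 itself was lower in Nav-Tsc2 mice (20.9 ± 5.18 CPM in control and 8.87 ± 1.52 CPM in Nav-Tsc2 mice, SD, n = 4 mice each). The sorted cells carried neuronal markers in both groups, and 10 neuronal and Nav1.8-lineage genes summed to between 12170 and 19560 CPM in control and between 15770 and 19420 CPM in Nav-Tsc2 libraries. Glial markers (14 genes) summed to between 2424 and 3823 CPM in control and between 2004 and 3001 CPM in Nav-Tsc2 libraries. Endothelial markers (6 genes) summed to between 0.0627 and 6.18 CPM in control and between 3.40 and 29.1 CPM in Nav-Tsc2 libraries, and macrophage markers (7 genes) to between 0.440 and 18.5 CPM in control and between 5.42 and 37.6 CPM in Nav-Tsc2 libraries. The part of these cells in the values of the receptors was not tested. Of the 8 mast cell markers, Mcpt4, Tpsb2, Tpsab1 and Fcer1a had no read in any library, and neither had Mrgprb2, the Mrgpr of mast cells. The 8 together summed to between 43.2 and 191 CPM in control and between 1.00 and 60.2 CPM in Nav-Tsc2 libraries, nearly all of it Kit, which some sensory neurons also express.

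Mrgpra3 showed the largest difference among the members. In control mice 1 to 4 it had 36.2, 79.7, 1.03 and 2.27 CPM, and in Nav-Tsc2 mice 1 to 4 it had 0.0617, 0.195, 0 and 0.0508 CPM. No Nav-Tsc2 mouse reached the lowest control mouse. The log2 fold change was -8.58 (SE 1.63, adjusted p = 0.00557, edgeR). The low side of this difference rests on few reads, 3, 11, 0 and 3 in Nav-Tsc2 mice 1 to 4, and 0 reads in mouse 3 allow a level of up to 0.0490 CPM (3 reads, counting error only). The call held in all 41 other fits that could test Mrgpra3, with log2 fold changes between -9.62 and -4.44.

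The control signal of Mrgpra3 came from few libraries. Library C of control mouse 1 had 97.9 CPM (2108 reads), and libraries A and B of control mouse 2 had 126 and 140 CPM (2016 and 2132 reads). Every other control library had 6.20 CPM or less, with 0 in library C of mouse 3 and library A of mouse 4. In the Nav-Tsc2 group, 6 of 12 libraries had no Mrgpra3 read and the highest had 0.326 CPM. With these 3 control libraries left out, an alternative chosen after seeing the data, the log2 fold change was -4.44 (adjusted p = 0.0154, edgeR), and the call remained. At a threshold of 1 CPM, 8 of 12 control and 0 of 12 Nav-Tsc2 libraries held Mrgpra3, against 3 and 0 at 10 CPM.

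Mrgpra1, the close relative of Mrgpra3, was also lower, at a much smaller level and in other libraries. It had 2.49, 5.79, 0.995 and 0.683 CPM in control mice 1 to 4 and 0.103, 0.0177, 0.114 and 0.542 CPM in Nav-Tsc2 mice 1 to 4. The groups did not overlap, although female control mouse 4 and female Nav-Tsc2 mouse 4 lay close together. On the log2 scale the change was -3.66 (SE 1.02, adjusted p = 0.0316, edgeR). By reads, control mice had 147, 306, 55 and 34 and Nav-Tsc2 mice had 5, 1, 7 and 32.

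The highest control library for Mrgpra1 was library C of mouse 2 with 9.58 CPM, a library with 2.76 CPM of Mrgpra3, and the 3 libraries high in Mrgpra3 had 1.11, 5.01 and 1.18 CPM of Mrgpra1. The call of Mrgpra1 was not firm: with the mouse number as a replicate block the log2 fold change was -3.78 and the adjusted p 0.109 (edgeR), and with sex as a covariate the adjusted p was 0.0774 (edgeR). Without control mouse 1 or 2 the adjusted p was 0.0554 and 0.0882 (edgeR), and without Nav-Tsc2 mouse 1, 2 or 3 it was 0.0932, 0.0653 and 0.0847 (edgeR). Leaving out library C of control mouse 4 or library C of Nav-Tsc2 mouse 4 gave 0.0559 and 0.0566 (edgeR). The direction was the same in all 41 other fits, with log2 fold changes between -4.96 and -2.82.

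Mrgprx1, the further receptor of the Mrgpra3 class, did not differ beyond the spread between mice. It had 6.07, 8.48, 2.73 and 5.12 CPM in control mice 1 to 4 and 1.89, 9.18, 1.68 and 0.423 CPM in Nav-Tsc2 mice 1 to 4. The groups overlapped, since Nav-Tsc2 mouse 2 was above every control mouse. On the log2 scale the difference was -0.76 (SE 0.77, adjusted p = 0.542, edgeR). Among control libraries it was highest in library A of mouse 2 (22.5 CPM), library B of mouse 4 (14.2 CPM), library C of mouse 1 (13.7 CPM) and library A of mouse 3 (10.3 CPM). Of these 4 libraries, 2 were also high in Mrgpra3. Without the 3 libraries high in Mrgpra3 the log2 fold change turned to 0.43 (adjusted p = 0.820, edgeR).

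Mrgprb4, the receptor of stroking-sensitive C-fibers, was found as 1 read in library B of control mouse 1 and as 0 reads in the other 23 libraries. For a mouse, 3 reads correspond to between 0.0490 and 0.0617 CPM, so Mrgprb4 was not detectable above that level in either genotype. Mrgprb5 was measured in all 24 libraries. It had 6.56, 5.36, 27.5 and 24.7 CPM in control mice 1 to 4 and 28.4, 18.1, 37.3 and 27.1 CPM in Nav-Tsc2 mice 1 to 4. The groups overlapped, with the female control mice within the Nav-Tsc2 range and the male control mice below it. This gave a log2 fold change of 0.79 (SE 0.51, adjusted p = 0.317, edgeR).

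Mrgprd, the receptor of the polymodal nonpeptidergic class, was the most abundant member per length in 9 of 12 control libraries and in all 12 Nav-Tsc2 libraries. It had 56.0, 21.9, 325 and 233 CPM in control mice 1 to 4 and 546, 486, 598 and 518 CPM in Nav-Tsc2 mice 1 to 4. Every Nav-Tsc2 mouse was above every control mouse, and the male control mice were the lowest. The log2 fold change was 1.76 (SE 0.67), but with an adjusted p of 0.0935 (edgeR) Mrgprd was not called. Mice of the 2 groups did not overlap for 2 members that were lower (Mrgpra3 and Mrgpra1) and 2 that were higher (Mrgprd and Mrgpre), against 12.3% of all genes tested in the lower and 14.6% in the higher direction.

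The result for Mrgprd turned on the fit. It was called with sex as a covariate (log2 fold change 2.36, adjusted p = 0.0233, edgeR) and without control mouse 3 (2.37, adjusted p = 0.0334, edgeR). It was also called when single libraries were fitted and each mouse was a random term (3.06, adjusted p = 0.000734, limma) and without the 3 control libraries high in Mrgpra3 (1.63, adjusted p = 0.0433, edgeR). The limma fit took 1 correlation of 0.0785 between libraries of a mouse for all genes. Its p-value thus treats the technical libraries nearly as separate replicates. With the replicate block the adjusted p was 0.0545. Of all 42 other fits, 5 called Mrgprd and 37 did not, and its log2 fold change lay between 1.39 and 3.06. Across libraries, Mrgprd ranged from 1.32 to 548 CPM in control, with a median of 107 CPM, and from 319 to 708 CPM in Nav-Tsc2, with a median of 509 CPM. A single control library, library A of mouse 3, lay above the Nav-Tsc2 median.

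Mrgpre, the orphan receptor, was the steadiest member. It had 19.7, 21.9, 22.4 and 25.4 CPM in control mice 1 to 4 and 45.0, 46.4, 35.9 and 37.3 CPM in Nav-Tsc2 mice 1 to 4. The groups did not overlap, and the spread within each group was small beside the difference. The log2 fold change was 0.88 (SE 0.13, adjusted p = 0.00165, edgeR), and Mrgpre was called higher in all 42 other fits, with log2 fold changes between 0.81 and 0.95. By library it lay between 15.5 and 37.4 CPM in control (median 20.8) and between 33.6 and 52.8 CPM in Nav-Tsc2 mice (median 41.0), and 2 control libraries, library A of mouse 3 and library B of mouse 4, reached the Nav-Tsc2 range.

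**Figure D2:**
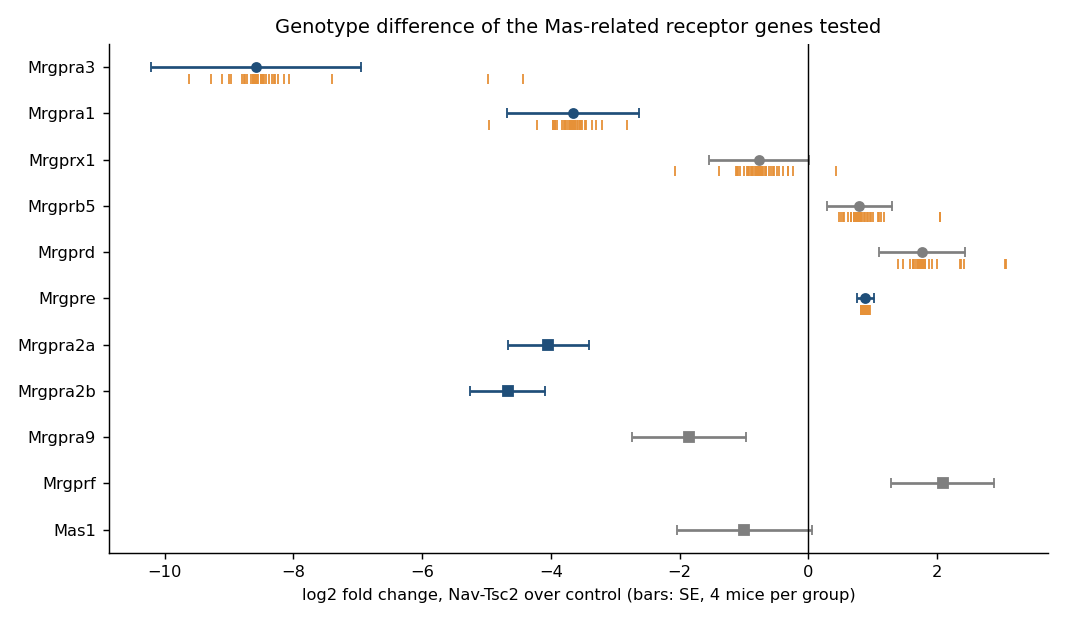
Log2 fold change of Nav-Tsc2 over control mice with its standard error (4 mice per group) for the 6 members tested (circles) and the 5 other Mas-related genes tested (squares), in blue where called and grey where not; orange ticks are the other fits tried for the members. Mrgpra3 and Mrgpra1 lie below 0 and Mrgpre and Mrgprd above 0 in every fit, and the ticks of Mrgprx1 lie on both sides of 0.

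Sex was balanced between the genotypes, and the difference of several members was of unequal size in the 2 sexes. Each sex had 2 mice per genotype. In a model with sex, the log2 fold change of Mrgprd was 3.73 in male mice (adjusted p = 0.00175, edgeR) and 1.00 in female mice (adjusted p = 0.163, edgeR). That of Mrgprb5 was 1.96 in male (adjusted p = 0.00420, edgeR) and 0.30 in female mice (adjusted p = 0.567, edgeR). That of Mrgpra1 was -6.08 in male (adjusted p = 0.0145, edgeR) and -1.35 in female mice (adjusted p = 0.472, edgeR). Control libraries 1C, 2A and 2B, which had the least Mrgprd and Mrgprb5, all came from male mice, and no fit by sex left them out. The difference between the sexes itself did not pass the test for any of the 6 members. Its adjusted p was 0.194 for Mrgprd, 0.272 for Mrgprb5, 0.385 for Mrgpra1, 0.497 for Mrgpre, 0.721 for Mrgpra3 and 0.770 for Mrgprx1 (edgeR), and 4 of the 6 had an unadjusted p under 0.05.

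Of all genes tested, 0.00582% (1 gene) passed this test of interaction, and 0 of the 6 members did. By DESeq2, 3 members passed (Mrgprd, Mrgprb5 and Mrgpra1), against 2.10% of all genes, and the same 3 passed by edgeR without the low-count filter, against 2.05%. Whether the sexes differed thus turned on the tool and on the filter. In control mice, the summed CPM of the 9 peptidergic markers ran opposite to Mrgprd between the sexes. The sum lay between 14340 and 21400 CPM in the 6 male and between 3433 and 11160 CPM in the 6 female control libraries. Most of it was Calca, with a control mean of 10160 CPM, followed by Tac1 with 1705 CPM. The sum therefore says little of the other peptidergic markers. In Nav-Tsc2 libraries the 9 markers summed to between 2143 and 6234 CPM. Their part in the values of Mrgprd was not tested.

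The members were compared with each other per kilobase of exon, since Mrgpre and Mrgprd have the longest transcripts. In control mice the order of mean levels was Mrgprd (50.5 ± 45.9 CPM per kilobase, SD, n = 4 mice), Mrgpra3 (23.0 ± 28.6), Mrgprb5 (15.5 ± 11.3), Mrgpre (5.94 ± 0.622), Mrgprx1 (4.75 ± 2.02) and Mrgpra1 (2.29 ± 2.15). The ranges of mean ± SD overlapped between all neighbours in this order. By the median of the control libraries instead of the mean over mice, Mrgpra3 fell to 1.41 CPM per kilobase and to the fifth place. In Nav-Tsc2 mice the order was Mrgprd (170.8 ± 15.2 CPM per kilobase, SD, n = 4 mice), Mrgprb5 (26.7 ± 7.59), Mrgpre (10.9 ± 1.41), Mrgprx1 (2.79 ± 3.37), Mrgpra1 (0.178 ± 0.217) and Mrgpra3 (0.0593 ± 0.0641). Here the ranges of mean ± SD did not overlap between Mrgprd, Mrgprb5, Mrgpre and Mrgprx1, while those of Mrgprx1, Mrgpra1 and Mrgpra3 did.

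**Figure D3:**
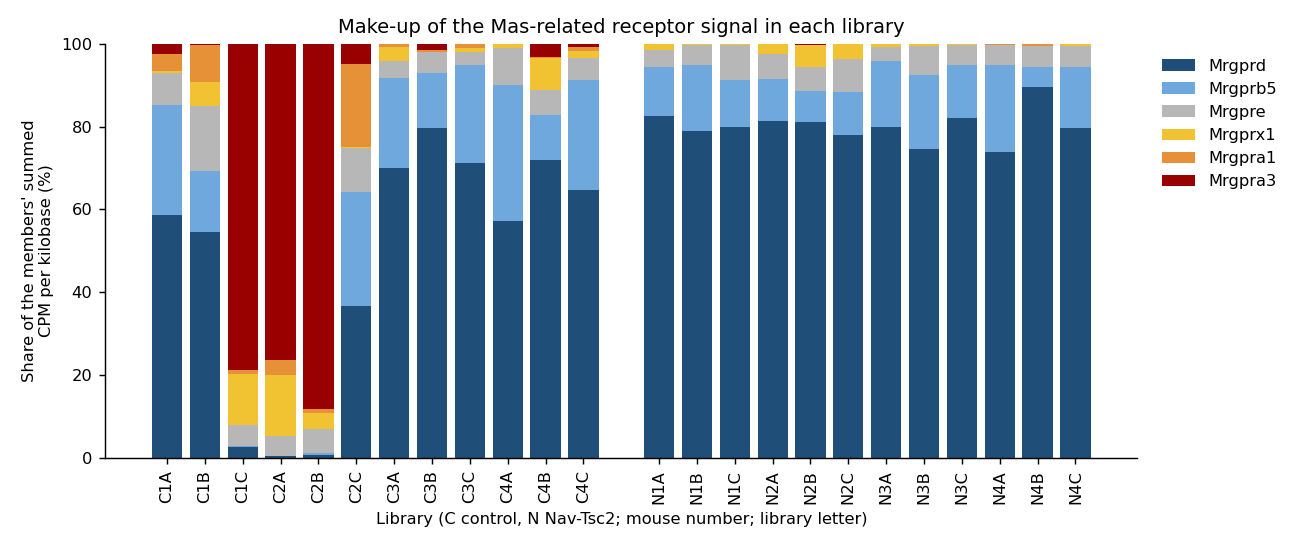
Share of each member in the summed CPM per kilobase of the Mrgpr genes, by library (C control, N Nav-Tsc2, mouse number and library letter; Mrgprb4, at most 0.0992% in any library, is not drawn). Mrgpra3 made up 76.3% to 88.2% in control libraries 1C, 2A and 2B, and Mrgprd made up 74.0% to 89.7% in each of the 12 Nav-Tsc2 libraries.

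The make-up of the summed level of the 7 members differed among control libraries more than among Nav-Tsc2 libraries. Other Mas-related genes, such as Mrgpra2b with a control mean of 7.34 CPM per kilobase, are not part of this sum. Mrgprd made up between 0.328% and 79.7% of the summed level per kilobase in control libraries (median 57.9%) and between 74.0% and 89.7% in Nav-Tsc2 libraries (median 80.0%). Mrgpra3 made up 78.8%, 76.3% and 88.2% in control libraries 1C, 2A and 2B and 4.87% or less in the other 9 control libraries. Mrgprb5 made up between 0.0934% and 32.8% in control and between 4.70% and 20.99% in Nav-Tsc2 libraries.

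The 3 control libraries with the most Mrgpra3 had the least Mrgprd and Mrgprb5 of all 24. Mrgprd was at 7.94, 1.32 and 2.56 CPM in libraries 1C, 2A and 2B, while the other 9 control libraries had between 50.4 and 548 CPM. Mrgprb5 was at 0.0929, 0.188 and 0.4595 CPM in these libraries, while the other 9 had between 5.99 and 56.4 CPM. Each of the 3 came from a male control mouse whose other libraries had both Mrgprd and Mrgprb5. The other 11 markers of the Mrgprd class, without Mrgprd, summed to 711, 724 and 651 CPM there, the lowest of the 24 libraries. The 7 other markers of the Mrgpra3 class, without Mrgpr genes, summed to 450, 508 and 441 CPM in these libraries. Such a sum is mostly Tmem45b and Nmb, with control means of 394 and 263 CPM, and says little of the other markers of the class. All 3 sums were below the median of 688 CPM over all control libraries, which ranged from 391 to 1298 CPM. Mrgpre was at 19.1, 22.4 and 27.5 CPM there, within its range in the other control libraries.

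**Figure D4:**
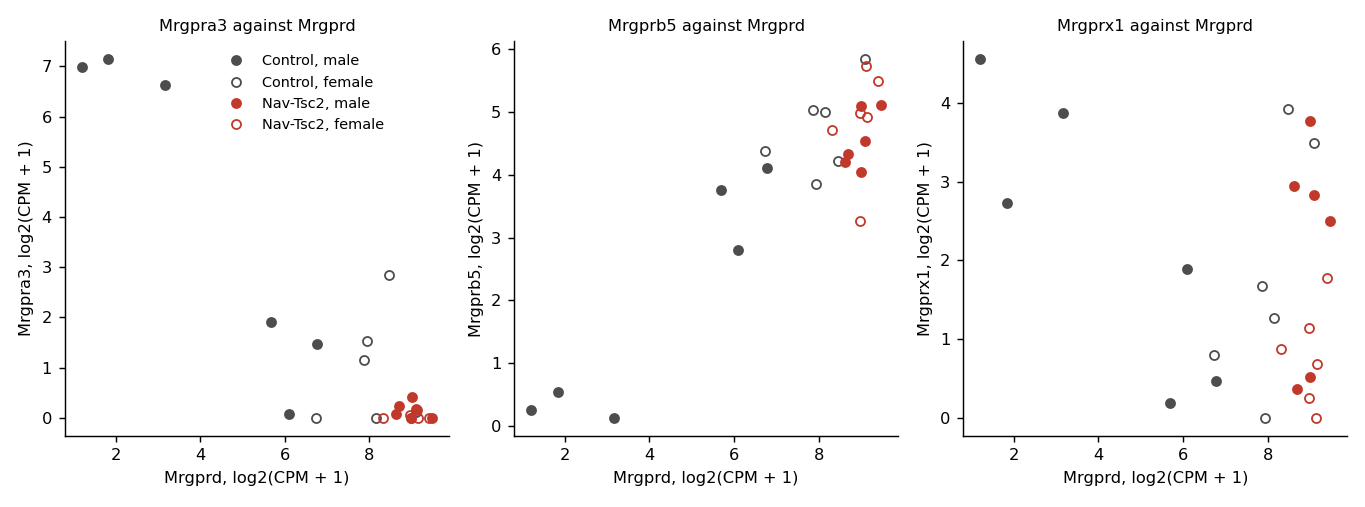
Mrgpra3, Mrgprb5 and Mrgprx1 against Mrgprd, each as log2(CPM + 1) in single libraries, with control in grey and Nav-Tsc2 in red, filled points male and open points female. The control libraries 1C, 2A and 2B stand alone at the left, with Mrgprd at 1.32 to 7.94 CPM, high Mrgpra3 and Mrgprb5 under 1 CPM.

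The share of a gene's signal held by 1 of the 3 libraries of a mouse gives its concentration, and equal libraries would each hold the same share. Over all genes tested, the highest library held a median of 46.3% of a mouse's summed CPM in control and 41.8% in Nav-Tsc2 mice. In control mice the median was 89.8% for Mrgpra3, 82.2% for Mrgprx1, 64.4% for Mrgprb5, 56.8% for Mrgpra1, 55.0% for Mrgprd and 43.2% for Mrgpre, so 5 of the 6 members tested were above the median of all genes. Among genes with a control mean of 5 to 50 CPM, the 95th percentile was 57.2%. Mrgpra3, Mrgprx1 and Mrgprb5 lay above it and the other members tested below it, although the levels of Mrgpra1 and Mrgprd are outside that range. The most concentrated cases in control mice were Mrgpra3 in mouse 1, with 98.2% in library C, Mrgpra3 in mouse 3, with 96.1% in library B (56 of 57 reads), Mrgprb5 in control mouse 2, with 95.1% in library C, and Mrgprd in the same mouse and library, with 92.9%. In Nav-Tsc2 mice, Mrgprd, Mrgprb5 and Mrgpre had medians of 40.5%, 42.5% and 36.8%, near that of all genes, and Mrgprx1 had 74.6%. The values of Mrgpra1 and Mrgpra3 in Nav-Tsc2 mice rest on between 0 and 32 reads a mouse.

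**Figure D5:**
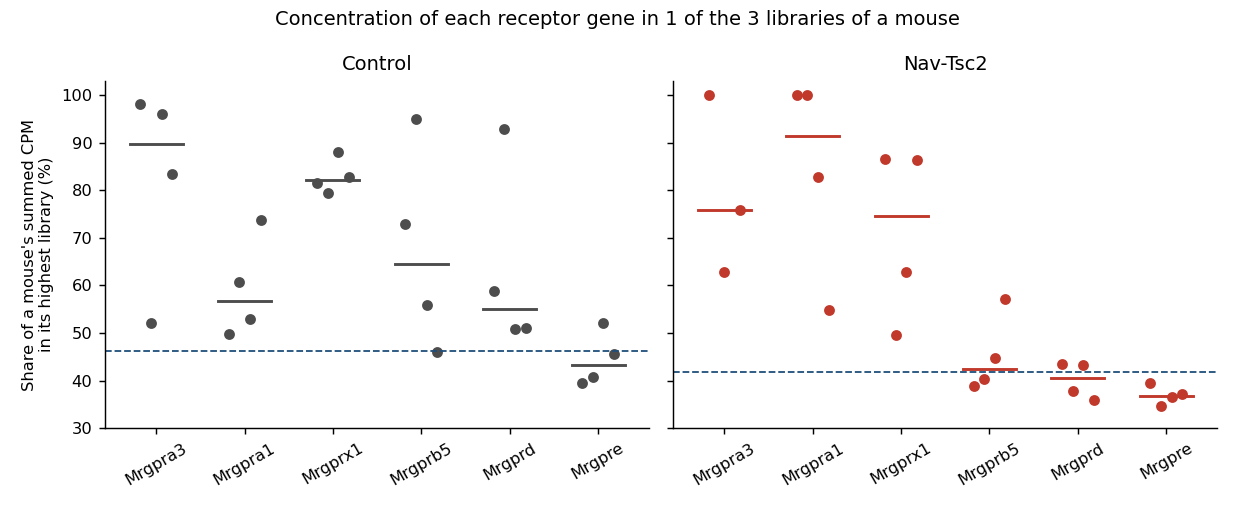
Share of a mouse's summed CPM that lay in the highest of its 3 libraries, 1 point per mouse with the median as a bar; the dashed line is the median of all genes tested. In control mice Mrgpra3 and Mrgprx1 had medians of 89.8% and 82.2% against 46.3% for all genes, and Mrgpre had 43.2%. Nav-Tsc2 mouse 3 had no read of Mrgpra3 and has no point.

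For each member with over 10 CPM in at least 3 control libraries, the genes most like it were taken as the 3 with the highest Pearson r of log2(CPM + 1) over the 12 control libraries, out of 13487 genes. The 3 libraries of a mouse share an animal, and the highest of so many values of r are high in part through the choice itself. They are descriptions, and no test was made of them. For Mrgprd they were Grik1, a kainate receptor subunit (r = 0.98), Gm38901 (0.97) and Otoa (0.97). Over the 12 Nav-Tsc2 libraries the values for these 3 genes were 0.83, 0.31 and 0.22, and over the 9 control libraries left without 1C, 2A and 2B they were 0.98, 0.86 and 0.87. For Mrgprb5 they were Otoa (0.98), Prkcq, a protein kinase C (0.96), and Mrgprd itself (0.95). In the 9 other control libraries these values were 0.84, 0.79 and 0.75, and in Nav-Tsc2 libraries 0.35, 0.24 and 0.42.

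For Mrgpra3 they were Dgka, a diacylglycerol kinase (0.88), Elp6 (0.87) and Zfp882 (0.87), without the 3 libraries the values were 0.44, 0.42 and 0.81, and over Nav-Tsc2 libraries 0.18, -0.08 and -0.13. For Mrgpre they were Carmil2 (0.93), Grm7, a metabotropic glutamate receptor (0.87), and Scap (0.85), with 0.30, -0.33 and 0.08 over Nav-Tsc2 libraries. For Mrgprx1 they were Nfkbiz (0.88), Gm45495 (0.87) and Cyp4v3 (0.85), with -0.28, -0.59 and 0.35 over Nav-Tsc2 libraries.

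Of 13 other Mas-related receptor genes, 5 were tested by edgeR. Of these, 2 of the Mrgpra subfamily were called lower, against 8.00% of all genes tested, and none higher, against 9.12%. Mrgprf was higher at an unadjusted p under 0.05, and DESeq2 called 1 higher. The median log2 fold change of the 5 genes was -1.86. Mrgpra2a was at 3.87 ± 1.59 CPM in control and 0.232 ± 0.166 CPM in Nav-Tsc2 mice (SD, n = 4 mice each), a log2 fold change of -4.04 (SE 0.63, adjusted p = 0.00199, edgeR). Mrgpra2b was at 9.80 ± 2.98 CPM in control and 0.380 ± 0.259 CPM in Nav-Tsc2 mice, a log2 fold change of -4.67 (SE 0.58, adjusted p = 0.000652, edgeR). These 2 genes were 99.8% identical in their coding sequence and had identical promoter windows. Only 12.5% and 18.8% of their 50-base windows were their own, and reads placed equally well at several loci were not counted. The CPM of both genes therefore leave out reads from the shared windows, and the split between the 2 genes is uncertain.

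Unlike Mrgpra3, Mrgpra2b was above 1 CPM in all 12 control libraries, with between 3.20 and 20.0 CPM, and in 1 of 12 Nav-Tsc2 libraries. Mrgpra9 (log2 fold change -1.86, adjusted p = 0.175), Mas1 (-0.99, adjusted p = 0.559) and Mrgprf (2.09, adjusted p = 0.0949, all edgeR) were not called. Mrgprb1, Mrgprb2, Mrgprb3 and Mrgprg had no read in any library.

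By edgeR, 8.00% of all genes tested were called lower and 9.12% higher. The counts of edgeR calls in the next 3 lists, and in the lists of class markers after them, stand beside these shares. Of 22 listed genes of the signalling downstream of Mrgprs, 20 were tested, of which 3 were called lower and another 1 was called higher (median -0.14 on the log2 scale). Plcb1, a phospholipase C beta, was at 38.9 ± 4.81 CPM in control and 7.54 ± 1.61 CPM in Nav-Tsc2 mice (SD, n = 4 mice each; log2 fold change -2.37, adjusted p = 5.7e-05, edgeR). Prkce, a protein kinase C, and Gnai1, an inhibitory G protein subunit, had log2 fold changes of -0.78 and -0.63 (adjusted p = 0.00157 and 0.0347, edgeR). Itpr3, a calcium release channel, was higher with a log2 fold change of 1.30 (adjusted p = 0.0487, edgeR).

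Of 23 listed receptors of other itch mediators, 19 were tested, of which 3 were called lower and another 2 were called higher (median 0.12 on the log2 scale). Il31ra, the interleukin 31 receptor, was at 21.6 ± 12.3 CPM in control and 0.525 ± 0.428 CPM in Nav-Tsc2 mice (log2 fold change -5.34, adjusted p = 0.00139, edgeR). S1pr3, a sphingosine 1-phosphate receptor, and Htr2a, a serotonin receptor, had log2 fold changes of -1.88 and -2.62 (adjusted p = 0.00159 and 0.00762, edgeR). Il17ra, a receptor of interleukin 17, was at 0.639 ± 0.152 CPM in control and 9.94 ± 1.79 CPM in Nav-Tsc2 mice (log2 fold change 3.96, adjusted p = 4.6e-05, edgeR). Ackr1, a chemokine-binding receptor, was higher by 0.63 on the log2 scale (adjusted p = 0.0210, edgeR).

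Of 19 listed regulators of the nonpeptidergic fate, all were tested, of which 5 were called lower and another 1 was called higher (median 0.17 on the log2 scale). Among those lower were Tshz2 (log2 fold change -0.83), Isl1, a homeodomain factor (-0.80), and Cbfb, the partner of Runx proteins (-0.93), with adjusted p between 0.000609 and 0.00427 (edgeR). Gfra3, the artemin receptor, was higher by 1.06 on the log2 scale (adjusted p = 0.0206, edgeR). Runx1, named here for the motif searched, was at 96.6 ± 35.9 CPM in control and 132.7 ± 21.03 CPM in Nav-Tsc2 mice, and the test did not call it (log2 fold change of 0.46, adjusted p = 0.234, edgeR). Of 12 markers of the Mrgprd class, all were tested, and 10 of the 12 log2 fold changes were above 0, with a median of 0.30. By edgeR 0 were called and 1, Mrgprd, had an unadjusted p under 0.05. DESeq2 called 0 of them and limma on single libraries called 4 higher. Of all genes called in that limma fit, 63.8% were higher, against 53.3% by edgeR. Of 12 markers of the Mrgpra3 class, 10 were tested, and 5 log2 fold changes lay below and 5 above 0, with a median of -0.19. By edgeR 4 were called lower (Nmb, Smpd5 and the members Mrgpra3 and Mrgpra1) and 0 higher, although before adjustment 1 higher gene had p under 0.05, and DESeq2 also called 4 lower and 0 higher. With limma on single libraries, where Mrgpra1 and Mrgpra3 were not tested, 1 was called lower and 2 higher.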

How the data were processed

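The data were 24 RNA-seq libraries, each of 100 sorted cells and 3 per mouse, from 4 control and 4 Nav-Tsc2 mice. The authors made cDNA with a low-input kit without molecular identifiers, aligned 50-base reads to mm10 with STAR and counted them per gene with HTSeq; the deposited values are raw counts. The strand setting is not given in the sources used here. The authors' deposited table of DESeq2 results and normalized values was not used. Of 47643 identifiers, 47224 matched GENCODE M21.

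Counts were summed per mouse, filtered with filterByExpr, scaled by TMM and tested with edgeR 4.0.16 in R 4.3.3 by the quasi-likelihood test, with sex added for the interaction. Alternatives used DESeq2 1.42.0 and limma 3.58.1 (random effect of mouse). The test was tried on simulated data. Sequences were handled with Biopython 1.88. Libraries of a mouse are technical replicates, and p-values from counts summed per mouse measure the spread between mice. Those of limma on single libraries rest largely on the spread between libraries, since the correlation within a mouse was set to 0.0785 for all genes. Intervals from counts cover counting error only.

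The members, the other lists and the tests were chosen with earlier results of these data known. All 7 members are named; other genes are named where they were tested (Mas-related genes), where they were called, at most 4 per list and direction, or by likeness over 12 control libraries. A gene that this rule names among the regulators is not reported here. Runx1 was named for its motif, and alternatives without control libraries 1C, 2A and 2B were chosen after seeing the data.

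Deviations of same-numbered mice from their group means correlated across 8445 genes at 0.184, 0.185, 0.108 and 0.199 for numbers 1 to 4. The main test did not pair the mice, and only the alternative with the replicate block paired them by number. Same-sex mice of unequal number had between 0.0627 and 0.198 and mice of opposite sex between -0.251 and -0.0826, so pairing and sex cannot be told apart.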

Additional observations from a re-analysis of the deposited data

Results flagged for a closer look

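Of 22 groups of 4 mice (11 Mas-related genes tested, in each genotype), 1 held a mouse far from the others, where chance gives about 1 in 20. Mrgprx1 was at 9.18 CPM in Nav-Tsc2 mouse 2, and the other Nav-Tsc2 mice had 1.89, 1.68 and 0.423 CPM. Its 3 libraries had 6.11, 12.6 and 6.74 CPM, so the high value was not held by 1 library.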

How the results depend on the processing

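In all 42 other fits the number of genes called stayed within 1.5 times of 2941, and leaving out 1 mouse or library gave 2145 to 3502. The count of members called lower was 1 with the replicate block or sex as a covariate, 0 with 24 libraries and the mouse as a random effect, which dropped Mrgpra1 and Mrgpra3 for low counts, and 1 to 2 when 1 mouse or library was left out. With the mouse filter kept, a fit added after seeing the data that shifted the median of all genes to 0.14, both were called lower. The count called higher was 2 with sex as a covariate, 3 in both fits with the mouse as a random effect (Mrgpre, Mrgprd and Mrgprb5), 2 without control libraries 1C, 2A and 2B and 1 to 2 when 1 mouse or library was left out. The replicate block changed no call of a member other than that of Mrgpra1. Mrgprx1 turned to 0.43 without those 3 libraries. Members with an interaction numbered 3 with DESeq2 and 3 without the low-count filter. By library medians, 2 of 6 members kept their place in the control order of levels. The raw-count share left 4 of 6 members above all genes. In every case the cause was not tested. The alternative of unique genome windows was not run, and windows unique among transcripts, added later, kept the order. Depth limits Mrgprb4, and Mrgpra1 and Mrgpra3 in Nav-Tsc2 mice, which had 32 reads a mouse or fewer.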

Other observations

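Among Mas-related pseudogenes, which no comparison of the report includes and which were chosen after their values were seen, Mrgprx3-ps was abundant, with 36174 reads over all libraries. It had 77.4, 33.7, 194.6 and 163.7 CPM in control mice 1 to 4 and 34.4, 79.6, 64.5 and 13.6 CPM in Nav-Tsc2 mice 1 to 4. Its lowest control libraries, library A of mouse 2 with 3.64 CPM and library B of mouse 2 with 12.4 CPM, were also the lowest control libraries for Mrgprd. The log2 fold change was -1.29 (SE 0.60, adjusted p = 0.167, edgeR), against 1.76 for Mrgprd. Of its 50-base transcript windows, 97.0% occurred in the transcripts of no other gene.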
